A study of Homo sapiens with 12 samples.

Results

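The comparison described here is of RCC4 cells with VHL put back (VHL cells) against RCC4 cells carrying the empty vector (Vec cells), in full medium. RCC4 is an established line of renal clear cell carcinoma without a working VHL tumour suppressor. It takes 6 of the 12 single-colour expression arrays of the series, 3 per line, and covers all 11963 genes that a probe set names alone. Both groups stood for 6 h in DMEM with 10% fetal bovine serum and antibiotics, with cystine present. The other 6 arrays are of the same lines after 6 h in DMEM without cystine, with 10% dialysed serum, and are used here for a parallel comparison of the lines. The labels call the 3 arrays of a group biological replicates without saying that they came from separate cultures, so p-values measure the spread between these samples, which may be technical. The labels give neither the vector's promoter nor whether either line is a clone or a pool, so the return of VHL and any other difference that arose between the lines cannot be told apart.

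VHL is the substrate-binding subunit of a ubiquitin ligase built on CUL2, elongins B and C and RBX1. In the presence of oxygen, prolyl hydroxylases of the EGLN family mark the oxygen-labile alpha subunits of hypoxia-inducible factors (HIF), HIF1A and EPAS1 (HIF-2 alpha), and VHL then binds the marked subunits and sends them to the proteasome. Without VHL the alpha subunits persist in normal oxygen, pair with ARNT and bind short DNA elements with the core ACGTG or GCGTG. In the kidney their targets cover glucose transport and glycolysis, mitochondrial remodelling, blood vessel growth and pH control, and clear cell carcinomas are known for high levels of them.

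Targets of HIF were mostly lower in VHL cells. Of 73 measured members of 4 lists of HIF targets, 52 were lower in VHL cells and 5 were higher, with a median log2 difference (VHL minus Vec) of -0.79. A total of 34 were called and at least 2-fold lower, and none was called and at least 2-fold higher. The largest falls were in COXFA4L2 (formerly NDUFA4L2), a mitochondrial protein, and STC1, a secreted glycoprotein hormone, and the largest rise among all genes was in KL, the klotho coreceptor of FGF23. A gene was called at a limma adjusted p under 0.05, with Benjamini-Hochberg adjustment over all 11963 genes, and the value after ± is the fit's standard error, with n = 3 per group.

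These counts stand beside a broad difference between the lines. Over all genes 46.1% were called, 23.1% higher and 23% lower in VHL cells, and 53.2% had arrays of the lines that did not overlap. Most calls were small, at a median absolute log2 difference of 0.38. Only 2.03% of genes were called and at least 2-fold higher and 2.23% called and at least 2-fold lower, so these shares are the stricter background for the lists. Of the called genes 43 were at least 4-fold higher and 66 at least 4-fold lower. The first principal component of all 12 arrays held 83.1% of the variance and separated the lines. Arrays of a group correlated between 0.998 and 0.999 over genes, array medians lay between 7.12 and 7.18, and no array was a copy of another. Of the 168 named genes that were called, 76 had several probe sets, and in 50 of these all were called the same way, in none was a probe set called the other way, and in the other 26 at least 1 was not called. Where averaging a gene's probe sets moved its value by over 1.5 times, the averaged value is given beside it.

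**Figure D1:**
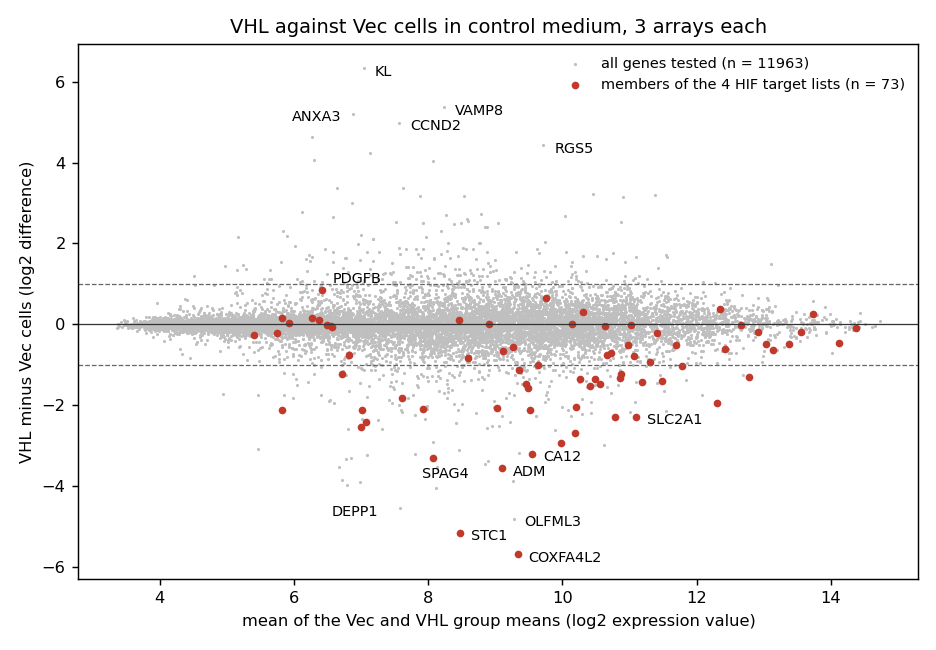
Each point is a gene, with the mean of both group means on the x axis and the log2 difference (VHL minus Vec, control medium, 3 arrays each) on the y axis, and dashed lines at 2-fold. The 73 measured HIF targets (red) reach down to -5.69 for COXFA4L2, and none is called and at least 2-fold higher.

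The calls were not spread evenly over the chromosomes. On chromosome 10, 45.2% of genes were lower and 11.8% higher, and on chromosome 22, 37.8% and 9.29%. Chromosome 16 went the other way, with 38.4% higher and 8.78% lower, as did chromosome 13 with 37.9% and 16.4%. The median difference of a whole chromosome stayed small, from -0.15 on chromosome 10 to 0.09 on chromosome 16. The median shift of the 50 nearest genes had the same sign as the gene itself in 72.3% of called genes, with a median size of 0.07 and extremes of 0.39 and -0.42. With this local shift subtracted in every array, an alternative chosen after seeing the data, 52 HIF targets were again lower and 5 higher, with a median of -0.75.

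**Figure D2:**
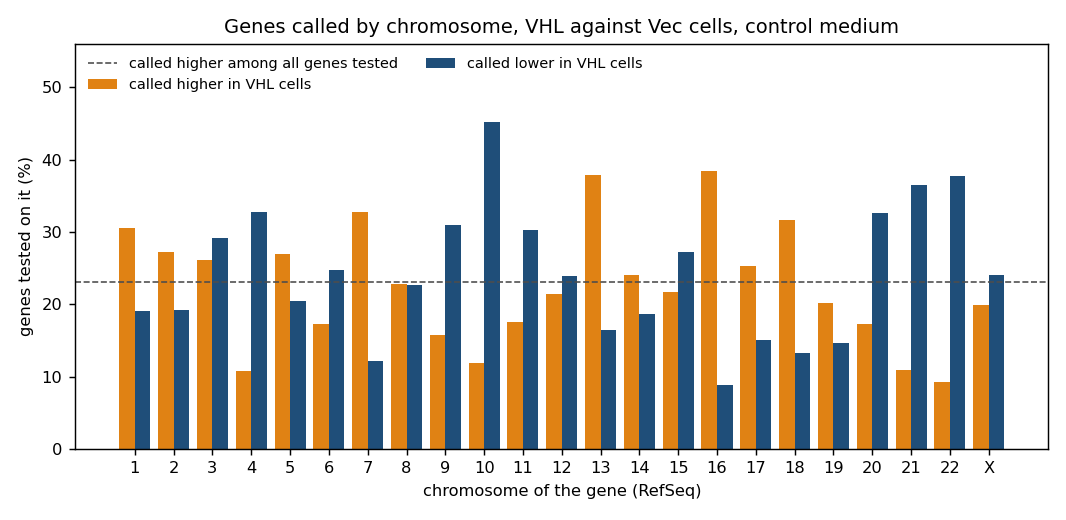
Bars give the percent of the genes tested on each chromosome that were called higher (orange) or lower (blue) in VHL cells in control medium, and the dashed line gives the percent called higher among all genes. Chromosome 10 has 45.2% lower, and chromosome 16 has 38.4% higher.

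The probe set for VHL itself was dim, meaning a mean at or under 6.25, the level below which the lowest 30% of genes lie. It read 5.80, 5.87 and 5.88 in Vec cells and 5.95, 6.00 and 6.02 in VHL cells. The arrays of the lines did not overlap, but the difference of 0.14 ± 0.05 missed the threshold (limma adjusted p = 0.0532). It passed with median centring, with a replicate block and with the local shift subtracted (0.33). It also passed with probe sets averaged per gene, but VHL has 1 probe set and its own values did not change there. Where this probe set lies in the transcript was not analysed here, so it does not check the labels.

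Of the 16 measured genes of the HIF machinery 5 were higher and 4 lower. The share called was 56.2%, against 46.1% over all genes. HIF1A read 12.62, 12.86 and 12.71 in Vec cells and 13.84, 13.65 and 13.63 in VHL cells, every VHL array above every Vec array. It rose by 0.98 ± 0.08, or 1.97-fold (limma adjusted p = 2.52e-07). EPAS1, the other main alpha subunit, read 12.84, 12.99 and 12.93 in Vec cells and 12.08, 12.10 and 11.99 in VHL cells. It fell by 0.87 ± 0.06 (limma adjusted p = 1.32e-07), so the transcripts of both alpha subunits moved in opposite directions. HIF3A was dim in both lines and gave 0.12 ± 0.12. ARNT, the beta subunit that both alpha subunits need, rose by 0.75 ± 0.08 (0.40 averaged over its probe sets and 0.47 with the local shift subtracted), and its relative ARNT2 fell by 1.94 ± 0.09 to a dim level.

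Among the oxygen sensors, EGLN3 read 8.74, 8.71 and 8.66 in Vec cells and 5.39, 5.58 and 5.44 in VHL cells. It was 9.43-fold lower (-3.24 ± 0.06, limma adjusted p = 1.97e-13), with VHL cells at a dim level where background signal may limit the fold. EGLN1, the main sensor of normal oxygen, gave 0.04 with a 95% interval from -0.06 to 0.14, and with the local shift subtracted it was called lower, at -0.17. HIF1AN, the asparaginyl hydroxylase that blocks HIF coactivators, gave 0.03, with an interval from -0.07 to 0.13, and was called higher, at 0.32, with the local shift subtracted. Both values stayed far smaller than the fall of EGLN3. EGLN2 was not analysed here.

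The ligase subunits moved less. RBX1, the RING subunit, fell by 0.55 ± 0.06 (limma adjusted p = 6.20e-06). Elongin B (ELOB) gave 0.05 and CUL2, the scaffold, 0.12, neither called. CUL2 was called higher with median centring, with the mean of its probe sets, with the local shift subtracted (0.16) and without _x_at and _s_at probe sets (0.32). Elongin C (ELOC) was called at 0.18 ± 0.06 (limma adjusted p = 0.0338) although its arrays overlapped. This call was lost without any 1 of Vec replicates 1 and 3 and VHL replicates 1 and 2 (adjusted p from 0.0763 to 0.153). It was also lost in a fit of the 6 control-medium arrays, with probe sets averaged, with quantile normalization, without _x_at and _s_at probe sets (adjusted p from 0.0502 to 0.149) and with the local shift subtracted (0.05, adjusted p = 0.544). Of the coactivators, CREBBP rose by 0.99 ± 0.08 (0.59 averaged over 2 probe sets, 1 of them not called) and EP300 gave -0.05, with an interval from -0.21 to 0.11. CITED2, a HIF target that competes with HIF for these coactivators, read 9.90, 10.29 and 9.78 in Vec cells and 11.02, 11.06 and 10.68 in VHL cells, and rose by 0.94 ± 0.13. Like EGLN3, which fell, it was counted with the machinery and not in the HIF target lists.

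The promoters of 6 HIF targets that fell strongly are shown because they hold the core letters of the HIF element. Each was called lower and has ACGTG or GCGTG on either strand of the RefSeq promoter window. This window runs from 250 bases before to 50 bases after the start. The 6 are a selection and not a ranking by fall, so a target missing here may hold these letters too. Sequences are from RefSeq on GRCh38.p14, 5′ to 3′ in the direction of the gene. Capitals mark ACGTG and GCGTG, or their reverse complements CACGT and CACGC. In PPFIA4 the run of 6 capitals is ACGTG on both strands, overlapping.
COXFA4L2, chr12:57240713-57241012, minus strand: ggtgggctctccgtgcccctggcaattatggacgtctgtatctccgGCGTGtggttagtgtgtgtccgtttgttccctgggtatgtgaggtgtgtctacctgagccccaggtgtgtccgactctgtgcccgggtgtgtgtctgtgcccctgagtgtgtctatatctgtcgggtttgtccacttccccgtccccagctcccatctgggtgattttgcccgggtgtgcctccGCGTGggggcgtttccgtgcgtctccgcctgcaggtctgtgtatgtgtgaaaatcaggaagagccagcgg
ADM, chr11:10304823-10305122, plus strand: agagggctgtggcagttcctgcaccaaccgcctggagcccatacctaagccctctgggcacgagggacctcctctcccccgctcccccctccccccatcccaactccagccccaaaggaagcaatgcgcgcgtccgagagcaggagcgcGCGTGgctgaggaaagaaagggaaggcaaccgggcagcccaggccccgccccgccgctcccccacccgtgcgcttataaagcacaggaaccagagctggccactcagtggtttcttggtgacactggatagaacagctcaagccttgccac
CA12, chr15:63381797-63382096, minus strand: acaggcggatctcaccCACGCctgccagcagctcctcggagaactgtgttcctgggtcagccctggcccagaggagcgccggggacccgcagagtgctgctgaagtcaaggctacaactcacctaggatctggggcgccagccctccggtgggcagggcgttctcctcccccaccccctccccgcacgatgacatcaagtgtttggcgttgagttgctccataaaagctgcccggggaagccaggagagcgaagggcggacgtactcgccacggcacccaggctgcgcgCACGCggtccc
DDIT4, chr10:72273674-72273973, plus strand: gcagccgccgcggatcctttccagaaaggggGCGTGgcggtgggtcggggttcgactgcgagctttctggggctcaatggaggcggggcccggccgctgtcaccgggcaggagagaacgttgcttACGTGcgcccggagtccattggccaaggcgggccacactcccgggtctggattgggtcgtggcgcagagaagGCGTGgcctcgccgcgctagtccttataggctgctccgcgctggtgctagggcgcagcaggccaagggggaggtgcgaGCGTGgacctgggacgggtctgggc
ENO2, chr12:6914330-6914629, plus strand: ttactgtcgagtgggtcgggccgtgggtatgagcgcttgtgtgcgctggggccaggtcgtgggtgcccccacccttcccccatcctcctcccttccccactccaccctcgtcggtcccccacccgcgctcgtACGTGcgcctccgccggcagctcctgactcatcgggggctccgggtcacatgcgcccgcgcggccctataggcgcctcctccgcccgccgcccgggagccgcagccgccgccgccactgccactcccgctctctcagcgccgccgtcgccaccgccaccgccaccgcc
PPFIA4, chr1:203026241-203026540, plus strand: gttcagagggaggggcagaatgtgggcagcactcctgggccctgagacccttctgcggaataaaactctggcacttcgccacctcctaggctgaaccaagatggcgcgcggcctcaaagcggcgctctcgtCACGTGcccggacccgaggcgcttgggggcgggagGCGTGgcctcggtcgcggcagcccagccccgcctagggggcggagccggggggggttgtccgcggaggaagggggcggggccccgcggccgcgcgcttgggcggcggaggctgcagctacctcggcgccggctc

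DDIT4 carries 1 ACGTG and 3 GCGTG, ENO2 1 ACGTG, and COXFA4L2 and CA12 2 GCGTG each. At least 1 of these motifs stood in 79.1% of the promoters of 43 HIF targets that were called lower and had a promoter in the table. The share was 58.7% over the 9563 tested genes with a promoter and 48.4% over all 27305 promoters. It was 83.3% over the 18 HIF targets that were not called lower, a share no lower than in the members that fell. For ACGTG alone the shares were 58.1% in those called lower, 38.9% in the other targets and 24.8% in all tested genes. Among all genes called and at least 2-fold lower, 23.1% held ACGTG, and among those at least 2-fold higher 26.7%. A match in this window is a string of letters and not a measured binding site.

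Of 17 measured secreted factors among the HIF targets, 7 were lower, 6 of them at least 2-fold, and 2 were higher, with a median of -0.07. Called members made up 52.9%, near the 46.1% over all genes. STC1 read 11.03, 11.07 and 11.08 in Vec cells and 6.09, 5.79 and 5.83 in VHL cells. It was 35.7-fold lower (-5.16 ± 0.12, limma adjusted p = 1.99e-12), and VHL cells lay at the dim level. ADM, the vasodilator adrenomedullin, read 10.91, 10.92 and 10.80 in Vec cells and 7.30, 7.36 and 7.28 in VHL cells. It was 11.8-fold lower (-3.56 ± 0.05, limma adjusted p = 3.19e-14). Its opposite in vessel tone, the vasoconstrictor endothelin 1 (EDN1), fell in the same direction by 2.10 ± 0.08. NRN1, a small membrane-anchored factor of neurite growth, fell by 2.53 ± 0.13 to a dim level.

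VEGFA, the main angiogenic growth factor, read 10.93, 11.20 and 11.36 in Vec cells and 9.98, 9.66 and 9.82 in VHL cells. The groups stood apart, and VEGFA was 2.54-fold lower (-1.34 ± 0.10, limma adjusted p = 1.11e-07), with all 4 of its probe sets called lower at -1.34 to -0.85. ANGPTL4, an inhibitor of lipoprotein lipase, fell by 1.57 ± 0.12, and STC2, the paralog of STC1, by 0.75 ± 0.05. The other STC2 probe set gave -0.06 and was not called, and the average was -0.40. The members that rose were PDGFB, a growth factor for pericytes, and IGFBP3, a carrier of insulin-like growth factors. PDGFB rose by 0.85 ± 0.10 from a dim level (0.48 averaged over its probe sets), and without the probe sets whose names end in _x_at or _s_at it gave -0.02 and was not called. IGFBP3 rose by 0.26 ± 0.05. The other 8 members, among them EPO and LEP, were not called.

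**Figure D3:**
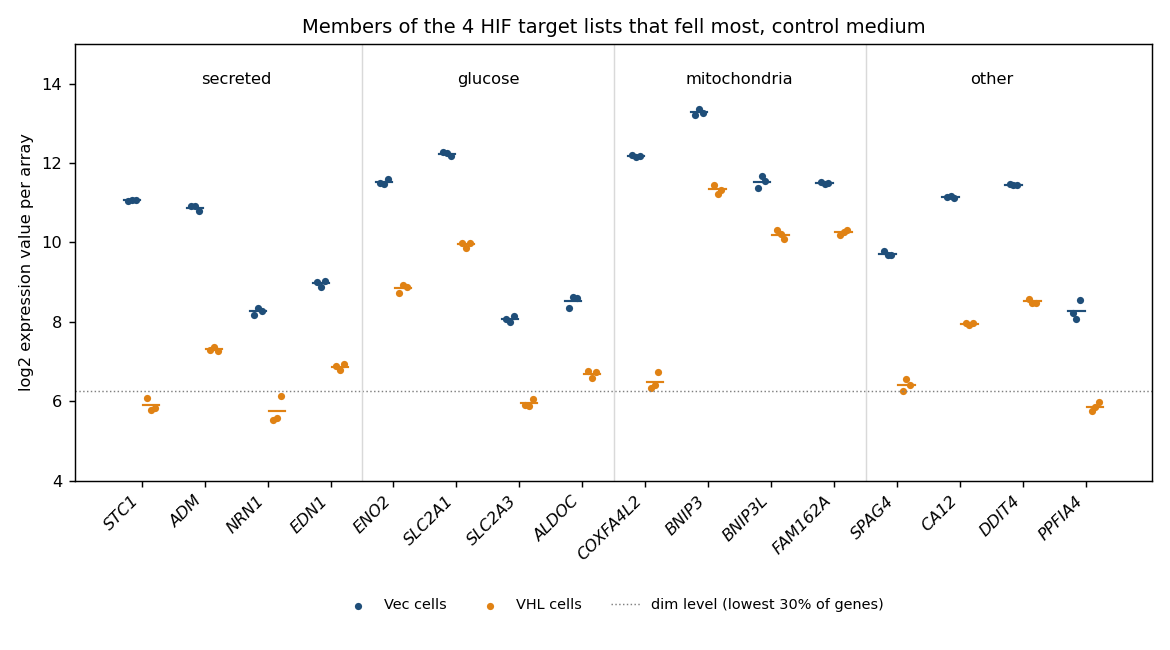
Points are the log2 expression values of the 3 Vec arrays (blue) and 3 VHL arrays (orange) in control medium, bars are group means, and the dotted line is the dim level, for the 4 members of each HIF target list that fell most. In all 16 genes, chosen by their fall on these same arrays, the lines do not overlap, which held for 53.2% of all genes tested. COXFA4L2 goes from between 12.16 and 12.22 to between 6.34 and 6.72.

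Of the 23 glucose transport and glycolysis genes 18 were lower and 1 higher, with a median of -0.61, and 8 were at least 2-fold lower. SLC2A1, the glucose transporter GLUT1, read 12.27, 12.25 and 12.18 in Vec cells and 9.99, 9.87 and 9.99 in VHL cells. It was 4.86-fold lower (-2.28 ± 0.06, limma adjusted p = 4.40e-12), and SLC2A3, the transporter GLUT3, was 4.38-fold lower, at a dim level in VHL cells. Hexokinases trap glucose as glucose 6-phosphate, and HK1 and HK2 fell by 1.40 ± 0.06 and 1.48 ± 0.07. The other HK2 probe set gave 0.08 and was not called, and the average was -0.70. The enolase isoforms differed in size of change. ENO2, the form typical of neurons, read 11.50, 11.47 and 11.59 in Vec cells and 8.73, 8.92 and 8.89 in VHL cells, and fell by 2.68 ± 0.07. ENO1, the common form, fell by 0.19 ± 0.07 (limma adjusted p = 0.0276), and this call was lost without Vec replicate 2 or 3, or without VHL replicate 1 or 3, and with median centring (adjusted p from 0.0526 to 0.0934).

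The aldolases were alike in that respect, with ALDOC, the brain-type form, 3.53-fold lower (-1.82 ± 0.08) and ALDOA, the muscle-type form, at -0.19 ± 0.05 (-0.36 with the local shift subtracted). Differences within these pairs were not tested. ENO1 and ALDOA averaged 13.01 and 13.65 in Vec cells, against 11.52 for ENO2 and 8.52 for ALDOC. PGAM1, PGK1 and LDHA, given below, averaged 13.45, 13.62 and 14.36, and the Vec arrays in control medium reached up to 14.70. Whether signal near the top of this range compresses a difference was not tested. Of the phosphofructokinases, which commit sugar to glycolysis, the liver form PFKL fell by 0.66 ± 0.06 and the platelet form PFKP by 0.61 ± 0.05. The muscle form PFKM rose by 0.66 ± 0.05, from 9.38 to 9.49 in Vec cells to 10.04 to 10.13 in VHL cells, and was the 1 member called higher. Other enzymes of the pathway fell by less than 2-fold on the brightest probe set. They were PGAM1 at -0.63 (-0.41 with the local shift subtracted), PGK1 at -0.49, TPI1 at -0.48 and LDHA, which makes lactate, at -0.47. PGK1 gave -0.77 averaged and -1.09, a fall of over 2-fold, without _x_at and _s_at probe sets. Without _x_at and _s_at probe sets TPI1 gave -0.18 and was not called (adjusted p = 0.186). GPI, the second step, gave -0.52. Enzymes of glycogen handling also fell, with GBE1, the branching enzyme, at -1.03, GYS1, glycogen synthase, at -1.01 and PGM1 at -0.79. GAPDH, PKM, PFKFB3 and PFKFB4 were not called, and SLC16A3 was not analysed here.

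All 9 measured mitochondrial members were lower, 5 of them at least 2-fold, with a median of -1.23. COXFA4L2 is a paralog of a cytochrome oxidase-associated subunit and is known as one of the strongest markers of clear cell carcinoma. It read 12.22, 12.16 and 12.17 in Vec cells and 6.34, 6.41 and 6.72 in VHL cells, and was 51.6-fold lower (-5.69 ± 0.12, limma adjusted p = 6.13e-13), with an interval from -5.95 to -5.43. VHL cells lay just above the dim level of 6.25, so background signal may limit this fold. BNIP3 and BNIP3L, receptors for the removal of mitochondria, were 3.84-fold and 2.52-fold lower. PDK1, the kinase that keeps pyruvate out of the mitochondrion, read 7.33, 7.46 and 7.22 in Vec cells and 6.15, 6.17 and 6.01 in VHL cells, and fell by 1.23 ± 0.08 to a dim level, with PDK3 at -0.75. MXI1, a MYC antagonist, fell by 0.70 ± 0.05, and LONP1, a matrix protease, by 0.50 ± 0.05. FAM162A fell by 1.23 ± 0.04, but its other probe set gave -0.09 and was not called, and the average was -0.66 (adjusted p = 0.589 without _x_at and _s_at probe sets). HIGD1A, a respiratory chain assembly factor, fell by 0.23 ± 0.05 and gave -0.04 with the local shift subtracted.

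The fourth list takes 24 measured genes of pH control, migration, lipid storage and other roles, and here 18 were lower, 15 of them at least 2-fold, and 2 higher, with a median of -1.39. CA12, a carbonic anhydrase at the cell surface, read 11.15, 11.17 and 11.12 in Vec cells and 7.96, 7.92 and 7.97 in VHL cells. It was 9.20-fold lower (-3.20 ± 0.04, limma adjusted p = 1.48e-14), and all 6 of its probe sets were called lower. SPAG4, a nuclear envelope protein, was 9.91-fold lower (-3.31 ± 0.07), with VHL cells just above the dim level. DDIT4, which restrains mTORC1, read 11.48, 11.44 and 11.44 in Vec cells and 8.58, 8.48 and 8.48 in VHL cells, and fell by 2.94 ± 0.05. PPFIA4, a liprin scaffold protein, fell by 2.42 ± 0.15 to a dim level, and NDRG1, a hypoxia-responsive gene of differentiation, fell by 2.28 ± 0.06. CA9 was not analysed here.

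Transcription regulators in the list included BHLHE41 at -2.13, RORA at -2.12 (dim in VHL cells), ZNF395 at -2.04 and BHLHE40 at -1.42, all lower. NT5E, the ectoenzyme that makes adenosine, fell by 2.06 ± 0.08. INSIG2, an inhibitor of sterol synthesis, was lower at -1.49, HILPDA, an inhibitor of lipolysis, at -1.12 and PLIN2, a coat protein of lipid droplets, at -0.93. The other PLIN2 probe set gave -0.01 and was not called, and the average was -0.47. The iron and heme genes TFRC, the transferrin receptor, and HMOX1, heme oxygenase, fell by 1.30 ± 0.06 and 1.53 ± 0.09. PLAUR, the urokinase receptor, fell by 1.35 ± 0.11 (-0.59 without _x_at and _s_at probe sets), NARF by 0.83 ± 0.06 and ERO1A, an oxidase of protein folding, by 0.57 ± 0.07. The members that rose were MET, the receptor of hepatocyte growth factor, at 0.38 ± 0.06 and VLDLR, a lipoprotein receptor, at 0.31 ± 0.06. CXCR4, TF, CCNG2 and WSB1 were not called.

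Other enzymes use oxygen and 2-oxoglutarate as the EGLN proteins do. Those named here were not in the HIF target lists, and whether HIF controls them was not analysed. Of 20 measured, 9 were lower and 5 higher, with a median of -0.17. That is 45% and 25%, against 23% and 23.1% over all genes. P4HA1, a collagen prolyl hydroxylase, read 11.56, 11.64 and 11.51 in Vec cells and 9.94, 9.81 and 9.86 in VHL cells, and was 3.25-fold lower (-1.70 ± 0.05). Its relative P4HA2 fell by 0.94 ± 0.05. Of the histone demethylases KDM4B fell by 1.07 ± 0.05 (-0.69 averaged over 5 probe sets, 1 of them not called) and KDM3A by 0.73 ± 0.07. KDM5B rose by 0.93 ± 0.06, a call that was lost without _x_at and _s_at probe sets (0.04, adjusted p = 0.644).

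**Figure D4:**
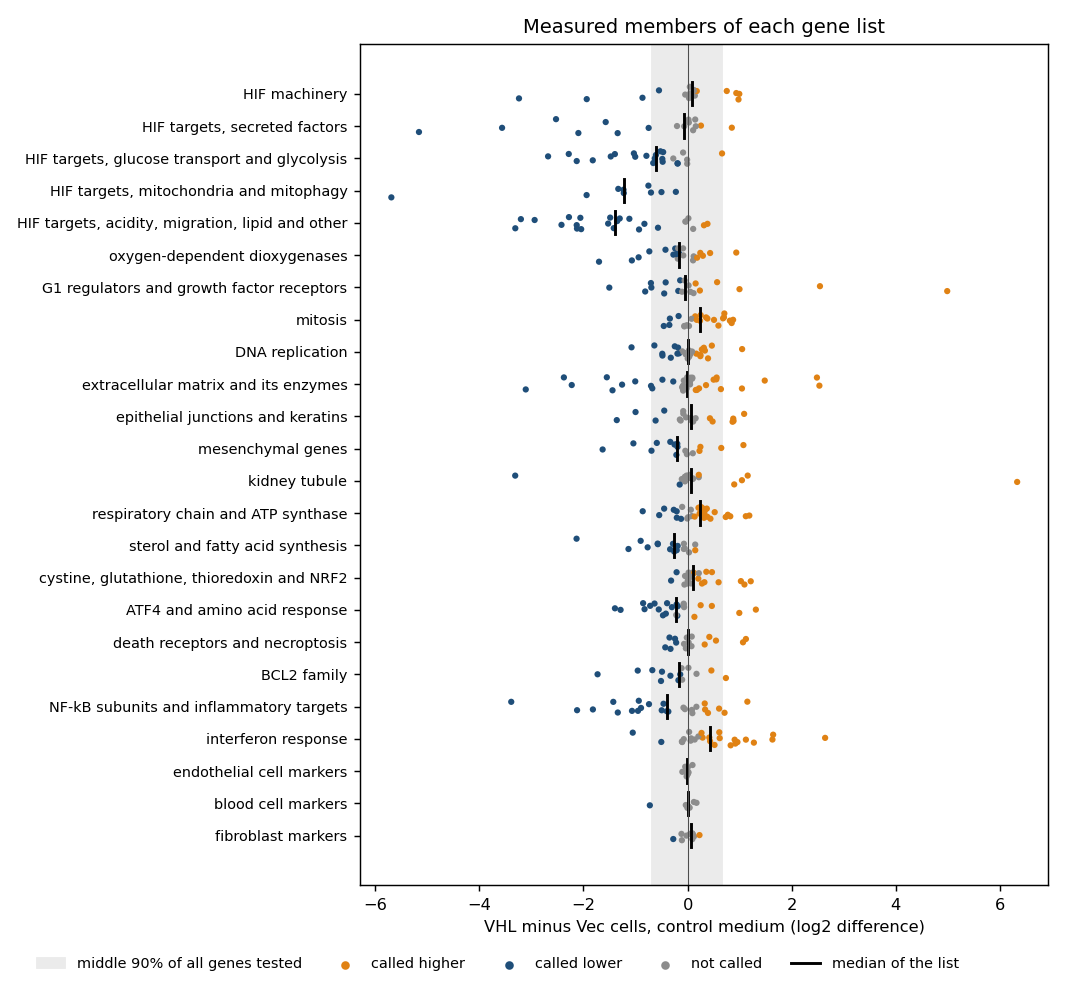
Each point is a measured member of a gene list at its log2 difference (VHL minus Vec, control medium), coloured by call, with the list's median as a black bar and the middle 90% of all genes tested in grey. The mitochondrial HIF targets (median -1.23) and those of acidity, migration and lipid (median -1.39) have their medians left of the grey band.

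The 12 largest falls of all genes included 3 HIF targets, COXFA4L2, STC1 and ADM. OLFML3, a secreted olfactomedin-domain protein, read 11.68, 11.76 and 11.62 in Vec cells and 7.02, 6.83 and 6.74 in VHL cells, and was 28.2-fold lower (-4.82 ± 0.07, limma adjusted p = 3.19e-14). DEPP1, a regulator of autophagy, read 9.89, 9.86 and 9.84 in Vec cells and 5.28, 5.36 and 5.30 in VHL cells, and fell by 4.55 ± 0.06 to a dim level (-2.47 averaged over its 2 probe sets). COL13A1, a transmembrane collagen, gave -4.04 ± 0.17 (-1.94 averaged over its 3 probe sets), and AUTS2, a nuclear regulator of transcription, -3.97 ± 0.07. GNAL, a G protein alpha subunit, gave -3.90 ± 0.13 with all 4 probe sets lower, the smallest at -0.90, and -2.59 averaged. INHBA, the activin A subunit, read 11.17, 11.01 and 11.43 in Vec cells and 7.54, 7.14 and 7.32 in VHL cells and was 14.6-fold lower (-3.87 ± 0.14). Its other probe set, which alone remained without _x_at and _s_at probe sets, gave -0.83, and the average was -2.35. The others were SPINK1, a trypsin inhibitor, at -3.84, GSPT2, a translation termination factor, at -3.52 and FABP6, a bile acid-binding protein, at -3.51. STC1, DEPP1, COL13A1, AUTS2, GNAL, SPINK1 and GSPT2 were dim in VHL cells, so background signal may limit those values. COXFA4L2 and FABP6 lay just above the dim level there, where background may limit the fold too.

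The 12 largest rises held no member of the HIF lists. KL read 3.86, 3.83 and 3.94 in Vec cells and 10.40, 10.46 and 9.76 in VHL cells, and was 80.4-fold higher (6.33 ± 0.20, limma adjusted p = 3.08e-11). VAMP8, a SNARE protein of vesicle fusion, read 5.69, 5.32 and 5.68 in Vec cells and 10.86, 10.92 and 10.99 in VHL cells, a 41.1-fold difference. ANXA3, a calcium-dependent phospholipid-binding protein, rose by 5.20 ± 0.10, and CCND2, cyclin D2, by 4.99 ± 0.09 with all 3 of its probe sets higher (3.25 averaged). These 4 genes were dim in Vec cells, so background signal may limit each fold. In contrast, RGS5, a brake on G protein signalling, and TPD52L1 were above the dim level in both lines. RGS5 read 7.44, 7.50 and 7.57 in Vec cells and 11.96, 11.99 and 11.84 in VHL cells (4.43 ± 0.07), and TPD52L1 rose by 3.22 ± 0.05.

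The remaining rises started from dim levels in Vec cells. NLGN1, a synaptic adhesion protein, rose by 4.63 ± 0.08 and ALDH2, the mitochondrial aldehyde dehydrogenase, by 4.24 ± 0.14. FUT9, a fucosyltransferase, rose by 4.06 ± 0.15 (1.48 averaged over 3 probe sets, 1 of them not called) and SLC34A2, a sodium phosphate cotransporter, by 4.04 ± 0.09. COL4A5, a basement membrane collagen, and STAT4, a cytokine-activated transcription factor, each gave 3.38. Single genes of this kind, at a dim level in 1 line and well above it in the other, occurred in both directions.

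Among 19 measured G1 regulators and growth factor receptors, 6 were higher and 8 lower. That is 31.6% and 42.1%, against 23.1% and 23% over all genes. The D-type cyclins, which start the cell cycle with CDK4 and CDK6, moved apart, with CCND2 higher and CCND1 lower. CCND1, cyclin D1, read 11.06, 11.32 and 11.35 in Vec cells and 9.74, 9.62 and 9.86 in VHL cells, and was 2.84-fold lower (-1.50 ± 0.08, limma adjusted p = 4.83e-09). CDKN1C, a cyclin-dependent kinase inhibitor, read 7.22, 7.42 and 7.33 in Vec cells and 9.83, 9.97 and 9.79 in VHL cells, a rise of 2.54 ± 0.10. MYC fell by 0.81 ± 0.05 and IGF1R, the insulin-like growth factor receptor, by 0.70 ± 0.06.

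Mitosis genes were mostly higher, with 14 of 23 (60.9%) higher and 4 (17.4%) lower and a median of 0.24. None was called and at least 2-fold different. Of the mitosis genes, PLK1, a mitotic kinase, rose by 0.85 ± 0.06 and CCNB1, the mitotic cyclin B1, by 0.81 ± 0.05. CCNB2 rose by 0.70 ± 0.04 and TOP2A, the topoisomerase, by 0.71 ± 0.07. CENPF, a kinetochore protein, rose by 0.87 ± 0.06, a call lost without _x_at and _s_at probe sets (0.08, adjusted p = 0.487). DNA replication genes were divided, with 9 of 26 higher and 9 lower and a median of 0.01. Each direction held 34.6%, against 23.1% higher and 23% lower over all genes. RFC3, a clamp loader subunit, rose by 1.05 ± 0.06 and POLE2, a polymerase epsilon subunit, by 0.47 ± 0.06. POLA1, the catalytic subunit of primase-polymerase, fell by 1.08 ± 0.06, CDC45, a helicase subunit, by 0.64 ± 0.05 and FEN1, a flap nuclease, by 0.48 ± 0.05.

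Genes of the extracellular matrix and its enzymes moved in both directions, with 12 of 37 higher and 11 lower. These shares were 32.4% and 29.7%, against 23.1% and 23% over all genes. The enzymes and inhibitors LOX and LOXL2, which cross-link collagen, and TIMP1, an inhibitor of matrix proteases, fell by 1.55 ± 0.05, 1.44 ± 0.04 and 1.26 ± 0.04. Of the 3 LOXL2 probe sets 1 gave -0.08 and was not called, and the average was -0.65. COL5A1, a fibrillar collagen, read 9.97, 10.03 and 10.03 in Vec cells and 6.82, 6.98 and 6.92 in VHL cells, and was 8.62-fold lower (-3.11 ± 0.06). MMP1, the interstitial collagenase, read 9.45, 9.55 and 9.80 in Vec cells and 12.21, 12.12 and 12.07 in VHL cells, and was 5.78-fold higher (2.53 ± 0.09).

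Epithelial genes had 6 of 19 higher and 4 lower, with a median of 0.07. These shares, 31.6% and 21.1%, were near the 23.1% and 23% over all genes. The desmosomal cadherin DSG2 and the plaque protein JUP each rose by 0.88 ± 0.05, and CDH16, the kidney-specific cadherin, by 1.09 ± 0.06. The keratins named by the rule fell, KRT19 by 1.36 ± 0.06 and KRT8 by 0.61 ± 0.05. Of 16 mesenchymal genes 9 (56.2%) were lower and 4 (25%) higher, with a median of -0.20. SNAI2, a repressor of epithelial genes, read 9.63, 9.55 and 9.66 in Vec cells and 8.07, 7.94 and 7.93 in VHL cells and fell by 1.63 ± 0.07. ITGA5, the fibronectin receptor subunit, fell by 1.04 ± 0.07 and CD44, the hyaluronan receptor, by 0.59 ± 0.05, while the contractile genes ACTA2 and TAGLN rose by 1.07 ± 0.06 and 0.65 ± 0.07. The other ACTA2 probe set gave 0.02 and was not called, and the average was 0.55.

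In the kidney tubule list 5 of 16 measured genes were higher and 2 lower, with a median of 0.07, and 7 were dim in both lines. The share called, 43.8%, was no higher than the 46.1% over all genes. Besides KL, the brush border peptidases MME and DPP4 rose by 1.04 ± 0.10 and 0.90 ± 0.09, and CA2, a cytosolic carbonic anhydrase, by 1.15 ± 0.05. EMX2, a transcription factor of kidney development, read 8.50, 8.60 and 8.40 in Vec cells and 5.23, 4.97 and 5.36 in VHL cells. It fell by 3.31 ± 0.13 to a dim level where background signal may limit the difference. Markers of other cell types were mostly dim. Of 10 endothelial markers none was called (PECAM1 gave 0.09 and ERG -0.10, or -0.23 and called without _x_at and _s_at probe sets) and 8 were dim in both lines, with summed linear values of 494 to 509 in Vec and 495 to 504 in VHL cells. Of 7 blood cell markers CSF1R was called, at -0.73 ± 0.10, and 4 were dim, with sums of 461 to 510 and 424 to 471. Of 10 fibroblast markers DCN was lower (-0.28, or -0.18 averaged over probe sets) and FAP higher (0.23), and 8 were dim, with sums of 706 to 726 and 702 to 730. The DCN call was lost without _x_at and _s_at probe sets (0.00, adjusted p = 0.991), and the FAP call without Vec replicate 1 or 3 or VHL replicate 2 or 3 (adjusted p from 0.0683 to 0.0967).

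Respiratory chain and ATP synthase genes were higher in 18 of 30 (60%) and lower in 7 (23.3%), with a median of 0.23. Over all genes 23.1% were higher and 23% lower. UQCRC2, a core subunit of complex III, read 10.49, 10.58 and 10.56 in Vec cells and 11.74, 11.74 and 11.71 in VHL cells, and was 2.27-fold higher (1.19 ± 0.06). SDHC of complex II rose by 0.82 ± 0.05, and NDUFB5 and NDUFS1 of complex I by 0.77 ± 0.05 and 0.52 ± 0.05, with NDUFB5 at 0.47 once the local shift was subtracted. UQCRB, another subunit of complex III, fell by 0.86 ± 0.07, and all 3 of its probe sets were called lower, down to -1.30. Sterol and fatty acid synthesis had 11 of 17 (64.7%) lower and 1 (5.88%) higher and a median of -0.26. SCD, the stearoyl-CoA desaturase, read 12.53, 12.73 and 12.58 in Vec cells and 10.45, 10.57 and 10.42 in VHL cells, and was 4.38-fold lower. DHCR7, LSS and SQLE of cholesterol synthesis fell by 1.14 ± 0.06, 0.90 ± 0.04 and 0.77 ± 0.05, and FASN, fatty acid synthase, by 0.57 ± 0.06. Averaged over probe sets LSS gave -0.49 and FASN -0.30, and 1 of the 2 FASN probe sets, at -0.04, was not called.

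The title of the series concerns cystine dependence, so the genes of cystine uptake, glutathione and the NRF2 response are of interest before any deprivation. Of 23 measured, 10 were higher in VHL cells and 2 lower, with a median of 0.10. Called members made up 52.2%, near the 46.1% over all genes. By direction 43.5% were higher and 8.7% lower, against 23.1% and 23% over all genes. NQO1, a quinone reductase, read 10.50, 10.50 and 10.52 in Vec cells and 11.51, 11.63 and 11.65 in VHL cells, a rise of 1.09 ± 0.05. GSR, which regenerates reduced glutathione, was 2.32-fold higher (1.21 ± 0.06). AKR1B10, an aldo-keto reductase, rose by 1.02 ± 0.10 from a dim level, NFE2L2, the NRF2 factor itself, by 0.47 ± 0.05 and PRDX6, a peroxiredoxin, by 0.36 ± 0.04. SLC7A11, the exchanger's transport subunit, gave 0.00 and was not called, and it is named here after its value was seen.

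Of 23 ATF4 and amino acid response genes 14 were lower and 5 higher, with a median of -0.22. That is 60.9% and 21.7%, against 23% and 23.1% over all genes. ATF4, the transcription factor of this response, read 12.95, 12.91 and 12.98 in Vec cells and 12.23, 12.21 and 12.24 in VHL cells, and fell by 0.72 ± 0.04. ATF3, a stress-induced factor, fell by 1.40 ± 0.07, PCK2, the mitochondrial carboxykinase, fell by 1.29 ± 0.06 and SHMT2, a mitochondrial enzyme of serine use, by 0.83 ± 0.06. GDF15, a stress hormone, rose by 1.31 ± 0.06, a call lost without _x_at and _s_at probe sets (0.17, adjusted p = 0.240), and the average over its probe sets was 0.74.

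Of 16 measured death receptor and necroptosis genes 5 were higher and 5 lower. The share called was 62.5%, against 46.1% over all genes. The receptors TNFRSF21 and TNFRSF11B, a decoy receptor, rose by 1.06 ± 0.05 and 1.12 ± 0.12, the latter within dim levels. The adaptor TRADD rose by 0.42 ± 0.05, with 1 of 3 probe sets at -0.04 and not called, and the adaptor FADD fell by 0.35 ± 0.05, and gave -0.15 with the local shift subtracted. CFLAR, an inhibitor of caspase 8, fell by 0.43 ± 0.06, and 9 of its 11 probe sets were called lower, but without _x_at and _s_at probe sets it gave 0.04 and was not called. RIPK1, RIPK3 and MLKL were not analysed here. In the BCL2 family, which sets the threshold of mitochondrial apoptosis, 8 of 14 were lower and 2 higher, with a median of -0.16. Called members made up 71.4%. Both protective and death-promoting members fell, with BCL2A1 (dim) at -1.73, BCL2L2 at -0.68 and BCL2L1 at -0.51 among the former and PMAIP1 at -0.96 among the latter, while HRK, a death-promoting member, rose by 0.74 ± 0.07 (0.45 averaged over its probe sets).

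Of 25 NF-kB subunits and targets 14 (56%) were lower, 6 of them at least 2-fold. Another 6 (24%) were higher, 1 of them at least 2-fold, and the median was -0.40. Over all genes 23% were lower and 23.1% higher. CXCL8, the neutrophil chemokine, read 10.42, 10.50 and 10.85 in Vec cells and 7.65, 6.86 and 7.09 in VHL cells, and was 10.5-fold lower (-3.39 ± 0.21). IL6 read 11.04, 11.00 and 11.41 in Vec cells and 9.26, 8.82 and 9.01 in VHL cells, and fell by 2.12 ± 0.16. PTGS2, the inducible cyclooxygenase, fell by 1.82 ± 0.13 to a dim level, LIF, an IL-6 family cytokine, by 1.07 ± 0.08 and VCAM1, an adhesion molecule, by 0.95 ± 0.05. Of 26 interferon response genes 16 (61.5%) were higher, 5 of them at least 2-fold. Another 2 (7.69%) were lower, 1 of them at least 2-fold, and the median was 0.42. IFIT1, an inhibitor of viral translation, read 5.28, 5.31 and 5.20 in Vec cells and 7.91, 7.93 and 7.88 in VHL cells, and was 6.24-fold higher from a dim level. IRF9, a subunit of the interferon-activated factor, rose by 0.96 ± 0.05, and the immunoproteasome subunits PSMB9 and PSMB8 by 1.12 ± 0.06 and 0.90 ± 0.05. IFI44 rose by 1.64 ± 0.07, but gave -0.03 and was not called without _x_at and _s_at probe sets, and 0.81 averaged over both of its probe sets.

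The same lines were compared on 6 other arrays after 6 h without cystine. There 47.2% of genes were called, and 4656 genes were called in the same direction in both media, which is 84.3% of the calls in full medium and 82.4% of those in deprived medium. Another 4 were called in opposite directions. All 510 genes called and at least 2-fold different in full medium had the same sign in deprived medium, and across genes the differences correlated at 0.960, genes not being independent replicates. Of the HIF targets 53 were lower and 7 higher, with a median of -0.71. COXFA4L2 gave -5.50 in deprived medium, EGLN3 -3.11, CA12 -3.00, SLC2A1 -2.08 and VEGFA -0.86, all called. KL gave 5.71 and CCND1 -1.56.

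**Figure D5:**
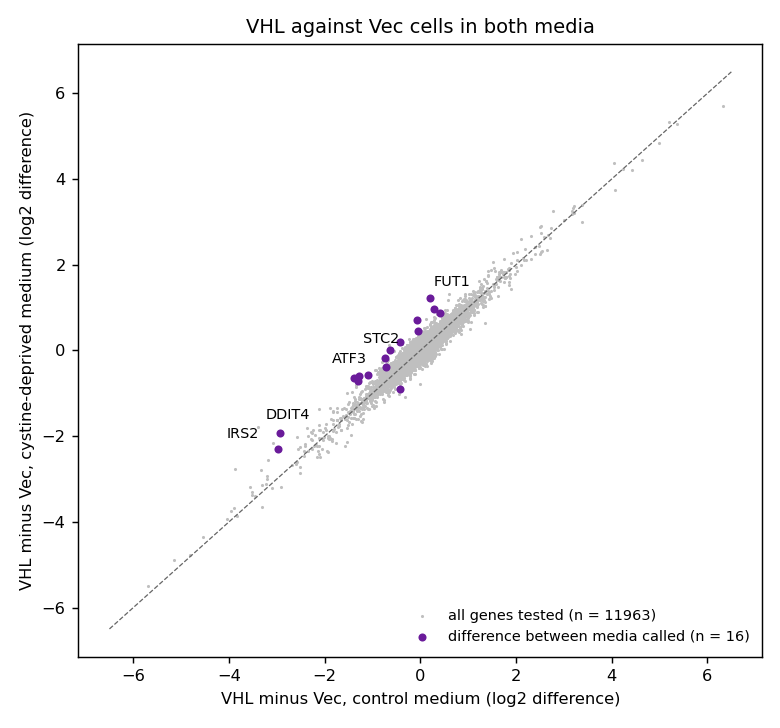
Each point is a gene at its log2 difference (VHL minus Vec) in control medium (x) and in cystine-deprived medium (y), 3 arrays per line and medium, with the dashed line marking equal values. Genes lie along the line (correlation 0.960), and for 15 of the 16 genes whose difference between media was called (purple) the point lies above it.

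A direct test of whether the difference between the lines depended on the medium called 0.134% of genes, 16 in all, against 1176 at an unadjusted p under 0.05. Of these 15 had a higher VHL minus Vec value in deprived medium. DDIT4 went from -2.94 in full medium to -1.93 in deprived medium, a change of 1.01 ± 0.06 (limma adjusted p = 1.31e-05). In deprived medium it read 12.73, 12.71 and 12.67 in Vec cells and 10.81, 10.74 and 10.77 in VHL cells, so both lines were higher than in full medium and the lines still did not overlap. STC2 went from -0.75 to -0.18 and TFRC from -1.30 to -0.71. Of the ATF4 list, PCK2, ATF3 and ATF4 itself also had smaller differences between the lines in deprived medium.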

How the data were processed

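RNA was measured on 12 single-colour Affymetrix arrays, 3 per group in 4 groups. The deposited values are log2 expression values, with 22215 probe sets on each array, the scale being read from the values. How the authors normalized them is not given in the sources used here, and the values were used as deposited. Genes were taken from the 19064 probe sets naming 1 gene, of which 19052 matched RefSeq by gene ID (GRCh38.p14), and the brightest probe set by its mean over all 12 arrays stood for it.

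Group means over all 12 arrays were fitted in limma 3.58.1 (R 4.3.3). The fit has 8 residual degrees of freedom, or 12.7 after moderation, and was tested on simulated data. Tests are two-sided, with Benjamini-Hochberg adjustment over 11963 genes. Intervals are 95% confidence intervals. The number of arrays limits the precision, and detection calls were not used. The dim level is a rank among genes, and background was not measured. Lists are described by counts and medians, with no test of a list.

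The 24 gene lists, the naming rule and the comparison were chosen with earlier results of these data known. Named are VHL, the HIF machinery, the 12 called genes with the largest rise and the 12 with the largest fall, taken where the arrays of both lines do not overlap, called HIF targets, and up to 5 called members of each other list by smallest adjusted p (up to 2 as values where none was called). Any other gene named was chosen after its values were seen. Alternatives changed the normalization, centring, filter on dim genes, probe set rule, variance model, arrays in the fit, replicate block and neighbouring genes.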

Additional observations from a re-analysis of the deposited data

Results flagged for a closer look

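For 6 named genes the signed difference between the lines (VHL minus Vec, log2) changed with the medium by limma's test of the difference, with 3 arrays per group. It was less negative, and so smaller in size, in deprived than in full medium. DDIT4 differed by 1.01 ± 0.06 (adjusted p = 1.31e-05), ATF3 by 0.76 ± 0.10 (adjusted p = 0.00523) and PCK2 by 0.70 ± 0.09 (adjusted p = 0.00695). TFRC differed by 0.59 ± 0.08 (adjusted p = 0.0100), STC2 by 0.57 ± 0.07 (adjusted p = 0.00428) and ATF4 by 0.33 ± 0.06 (adjusted p = 0.0416). In all 6 the line difference was below 0 in both media and nearer to 0 without cystine. The deprived medium also had dialysed serum, so the loss of cystine and the change of serum cannot be told apart if the control medium held undialysed serum.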

How the results depend on the processing

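The 5520 calls in full medium became 5085 to 5274 without any 1 replicate and 5286 to 5721 under the other alternatives on 8374 or more genes. Without _x_at and _s_at probe sets, which leaves 8369 genes, they were 3427 (1667 higher, 1760 lower), with 26 of 43 HIF targets lower and 3505 calls in deprived medium. This setting both tests fewer genes and changes the probe set that stands for some genes. HIF targets lower numbered 51 to 54 of 73 under the alternatives that kept all of these genes, and 51 to 53 without any 1 replicate. The 16 genes whose line difference depended on the medium became 45 with a variance trend and robust moderation and 11 without _x_at and _s_at probe sets, and 11 to 16 without any 1 replicate. Median centring moved the median of all genes to 0.03. Among named genes, PDGFB (-0.0153), IFI44 (-0.0326), CFLAR (0.0373) and DCN (0.0022) changed sign without _x_at and _s_at probe sets and EGLN1 (-0.1687) with neighbouring genes subtracted. For all of these the cause was not tested. Residuals of arrays sharing a replicate number correlated between -0.180 and 0.147 over 3 pairs in control medium, so the numbers were not taken to pair the samples, and with a replicate block 5517 genes were called.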

Other observations

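Some further genes, chosen after their values were seen, had line differences that depended on the medium. IRS2, an adaptor of the insulin receptor, gave -2.98 in full and -2.31 in deprived medium (difference 0.68 ± 0.06, limma adjusted p = 1.56e-04). INHBE, a secreted inhibin subunit, gave -0.07 and 0.72, and FUT1, a fucosyltransferase, 0.19 and 1.21. TXNIP, an inhibitor of thioredoxin, gave 0.28 and 0.96. MTHFD2, a mitochondrial folate enzyme, gave -0.64 and -0.00, and DDIT3, a stress-response factor, -0.42 and 0.18. HS3ST3A1, a heparan sulfate sulfotransferase, was the 1 gene with a lower value in deprived medium, at -0.43 and -0.91.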
